A study of Homo sapiens with 18 samples.

Results

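An R-loop forms when nascent RNA anneals back to the DNA strand it was copied from and leaves the other strand single-stranded. R-loops gather at the 5′ and 3′ ends of transcribed genes and are favoured where the displaced strand is rich in G. Phorbol 12-myristate 13-acetate (PMA) stands in for diacylglycerol and activates protein kinase C, which leads in epithelial cells to MAP kinase and NF-κB signalling and to a burst of immediate early genes such as FOS, JUNB and EGR1.

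The comparison described here is that of A3B KO cells treated with PMA for 2 h with A3B KO cells given the vehicle, DMSO. Both samples are DNA–RNA immunoprecipitation sequencing (DRIP–seq) libraries made with the S9.6 antibody, which binds RNA/DNA hybrids, and they are 2 of the 18 samples of the series. The cells were MCF10A, an immortalised non-tumorigenic line of human breast epithelium, grown in medium that contains EGF, insulin, hydrocortisone and cholera toxin. Both samples carry the APOBEC3B (A3B) deletion, made by CRISPR so that APOBEC3A and APOBEC3B are joined into a fusion gene, and neither is a wild-type (WT) control. They come from 1 KO derivative, so what the deletion does and what that derivative does cannot be told apart. PMA was used at 25 ng per ml. A3B is a DNA cytosine deaminase whose gene is itself induced by PMA in WT cells. WT cells given the same treatments and KO cells after 6 h of PMA were used only as set beside these values.

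Each condition had 1 library, so no difference below has a replicate check and no p-value was computed. A gene was called when its place in the list moved at least 2-fold, and such a call compares 2 libraries, not 2 populations of replicates. The knockout was checked first. No R-loop region was called in KO cells with PMA 2 h, with PMA 6 h or with DMSO in the 29.6 kb between the end of APOBEC3A and the end of APOBEC3B (hg38, chr22:38963185-38992804). WT cells had 5 regions there with PMA 2 h, of 3.17- to 5.05-fold enrichment, and 4 with DMSO, of 2.83- to 4.25-fold. Promoters of 6 of 9 basal and 3 of 8 luminal epithelial marker genes carried a region in both KO lists, as did 1 of 8 mesenchymal (VIM), 1 of 5 blood (CD14) and 1 of 4 endothelial marker genes (CDH5), and 5526 of all 19962 protein-coding genes.

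The PMA 2 h list held 120428 regions and the DMSO list 98432, each 500 bp wide and centred on a summit called against the library's own input. The value of a region is its fold enrichment, the signal at the summit over the local background. The median was 5.01-fold with PMA and 4.31-fold with DMSO. In all, 4315 regions with PMA and 1690 with DMSO reached 10-fold, while 341 and 303 reached 20-fold. The numbers of reads are not known from the peak lists, so the part that depth plays in the longer list and the higher folds was not tested. For this reason each gene was ranked within its own list, with rank 1 the strongest, and changes are given as log2 of the rank with DMSO over the rank with PMA. A positive value is a stronger place with PMA.

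Promoter regions, with a summit within 2 kb of the start of a protein-coding gene, made up 7.93% of the PMA list (Wilson 95% interval 7.77 to 8.08) and 9.65% of the DMSO list (9.47 to 9.84). Gene bodies held 62.3% with PMA and 62.0% with DMSO, and intergenic regions 29.7% with PMA and 28.3% with DMSO. These intervals cover counting error only. Among the strongest 500 regions the promoter share was 45.6% with PMA (41.3 to 50) and 40.8% with DMSO (36.6 to 45.2), so the intervals overlapped. Among the strongest 5000 it was 16.1% with PMA (15.1 to 17.1) and 23.2% with DMSO (22.1 to 24.4). Over all regions, 51.7% of the PMA list overlapped a DMSO region and 61.7% of the DMSO list overlapped a PMA region. Strong regions were shared more often: 330 of the 341 PMA regions of at least 20-fold overlapped a DMSO region, and 288 of the 303 DMSO regions overlapped a PMA region.

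Of 19962 protein-coding promoters, 7277 carried a region with PMA and 7195 with DMSO, and 5526 carried one in both lists and were ranked. The place of 920 promoters was at least 2-fold higher with PMA (16.6% of those ranked) and that of 940 at least 2-fold lower (17%). A promoter far down the DMSO list cannot fall 2-fold among 5526 ranks, so only a rise can be called there. The same limit holds for gene bodies and intergenic loci. The cut runs through a continuous distribution: the last promoter called higher stood at 1.002 and the first not called at 0.996, and on the lower side the values were -1 and -0.9996. Promoters of neighbouring genes are not independent, since 1490 ranked genes shared both of their summits with another gene, among them 199 of those called higher and 335 of those called lower.

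Windows of 120 bases around 6 summits are shown to make clear what the called regions look like on the displaced, non-template strand. They were chosen from the named genes because they overlap no annotated exon, and HBEGF, PPP1R15A and MAP3K20 stood higher with PMA while POLR3E, TGFBI and NPM1 stood lower. The sequences are from the hg38 reference, 5′ to 3′ on the coding strand of each gene, and runs of at least 3 G are in capitals.
HBEGF, PMA summit, chr5:140346161-140346280, minus strand: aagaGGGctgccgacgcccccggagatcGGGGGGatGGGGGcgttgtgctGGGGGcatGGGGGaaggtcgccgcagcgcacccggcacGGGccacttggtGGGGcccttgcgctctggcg
PPP1R15A, PMA summit, chr19:48872750-48872869, plus strand: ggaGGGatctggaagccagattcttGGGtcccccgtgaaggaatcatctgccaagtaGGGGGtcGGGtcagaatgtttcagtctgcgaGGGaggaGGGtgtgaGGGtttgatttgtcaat
MAP3K20, PMA summit, chr2:173076358-173076477, plus strand: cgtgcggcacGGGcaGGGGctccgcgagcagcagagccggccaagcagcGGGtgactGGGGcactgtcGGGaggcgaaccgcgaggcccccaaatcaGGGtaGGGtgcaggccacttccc
POLR3E, DMSO summit, chr16:22297847-22297966, plus strand: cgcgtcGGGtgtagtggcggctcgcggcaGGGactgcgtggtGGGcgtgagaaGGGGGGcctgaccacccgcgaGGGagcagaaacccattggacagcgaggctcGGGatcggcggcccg
TGFBI, DMSO summit, chr5:136029309-136029428, plus strand: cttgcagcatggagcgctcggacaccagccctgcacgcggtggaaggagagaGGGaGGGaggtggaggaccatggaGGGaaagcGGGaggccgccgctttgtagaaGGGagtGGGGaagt
NPM1, DMSO summit, chr5:171388110-171388229, plus strand: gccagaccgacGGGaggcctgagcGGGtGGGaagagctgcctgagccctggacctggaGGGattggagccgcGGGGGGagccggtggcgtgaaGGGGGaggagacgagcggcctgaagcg

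The windows of both kinds were dense in G runs, with 7 runs in each of HBEGF, PPP1R15A and MAP3K20 and 6 in each of POLR3E, TGFBI and NPM1. Over all called promoters the base composition was likewise close between those that rose and those that fell. The median GC content of the 500 bp region was 58.4% with PMA and 57.6% with DMSO at the 920 promoters that rose, and 59.6% in both lists at the 940 that fell. At the 3666 promoters called neither way it was lower, 54.6% with PMA and 55.2% with DMSO. G exceeded C on the coding strand in 64.0% of the rising promoters' regions with PMA and in 66.5% of the falling promoters' regions with PMA. The share was 63.2% with PMA at promoters called neither way. The strongest PMA and DMSO summits lay within 250 bp of each other at 74.3% of promoters that rose, at 73.4% of those that fell and at 70.7% of all ranked promoters. At the rest, a rank change compares different places near the start.

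The strongest gains were at genes known to answer growth factor and stress signals. HBEGF, which encodes heparin-binding EGF-like growth factor, had 62.5-fold enrichment and rank 12 with PMA, against 4.57-fold and rank 3625 with DMSO (log2 rank ratio 8.24). EGR1, a zinc finger transcription factor of the immediate early class, had 49.4-fold and rank 23 with PMA, against 4.32-fold and rank 3892 with DMSO (7.40). Both promoters stood in the lower part of the list in vehicle and near its top after 2 h. PPP1R15A, also called GADD34, which recruits protein phosphatase 1 to restart translation after stress, had 34.8-fold with PMA against 4.37-fold with DMSO (6.15). MAP3K20, the kinase ZAK that senses ribosome stalling, had 47.8-fold with PMA against 7.59-fold with DMSO (5.52). Other gains named by rule were at HLA-F (29.2-fold with PMA, 3.48-fold with DMSO), RAB43 (29.1 and 4.14), CCND3 (26.8 and 3.78), MNT (27.1 and 4.17), OCLN (22.5 and 3.36) and CD9 (22.4 and 3.41). CCND3 encodes cyclin D3, MNT is a MAX partner that opposes MYC, and OCLN encodes the tight junction protein occludin. At PPP1R15A and HLA-F the DMSO summit lay more than 1 kb from the PMA summit.

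**Figure D1:**
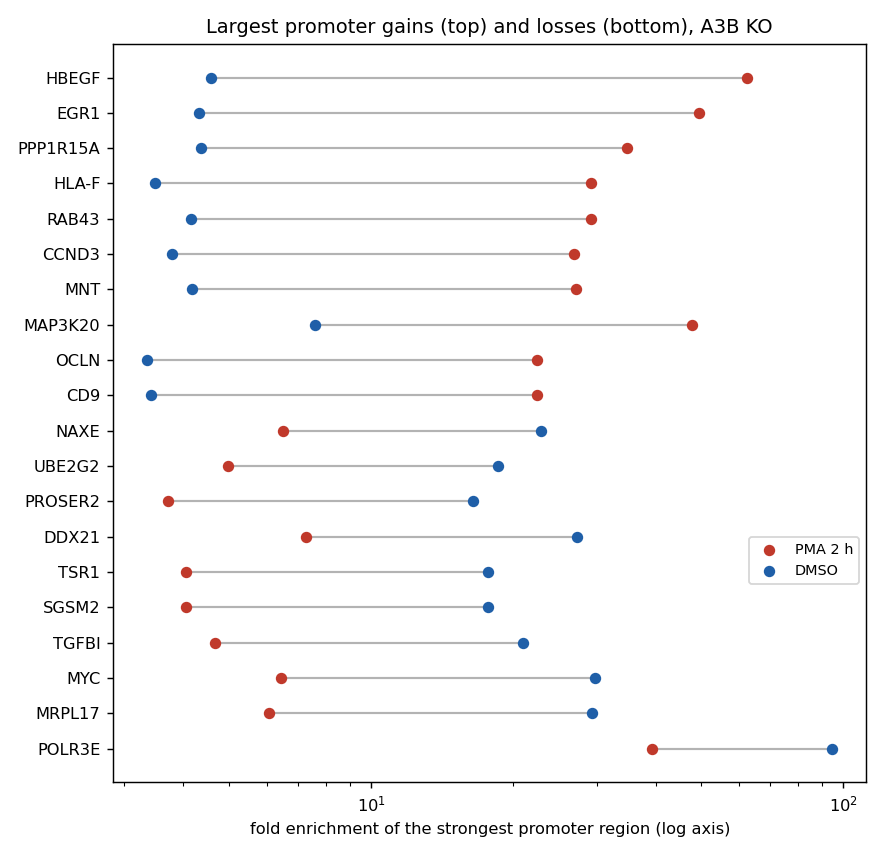
Fold enrichment (log axis) of the strongest promoter region of each gene with PMA 2 h (red) and with DMSO (blue) in A3B KO cells, 1 library each, for 20 of the promoters with the largest rank gains (top) and losses (bottom). HBEGF has 62.5-fold with PMA and 4.57-fold with DMSO, and POLR3E, at the bottom, has 39.2-fold with PMA and 94.7-fold with DMSO, so that it stays strong in both.

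The largest losses were at genes of growth and of ribosome and RNA production. POLR3E, a subunit of RNA polymerase III, held the strongest promoter region of the DMSO list at 94.7-fold and was at 39.2-fold with PMA, rank 47 (log2 rank ratio -5.55). MYC, the transcription factor that drives ribosome and nucleotide synthesis, had 6.43-fold and rank 2258 with PMA, against 29.7-fold and rank 59 with DMSO (-5.26). MRPL17, a mitochondrial ribosomal protein, had 6.07-fold with PMA and 29.3-fold with DMSO (-5.38). POLR3E thus lost rank while still among the strongest promoters, whereas MYC and MRPL17 moved to the middle of the list. DDX21, a nucleolar RNA helicase that unwinds R-loops, had 7.29-fold with PMA and 27.2-fold with DMSO (-4.57). TGFBI, an extracellular matrix protein induced by TGF-β, had 4.66-fold with PMA and 21-fold with DMSO (-4.85). TSR1, a factor of 40S ribosomal subunit maturation, shares its summit with SGSM2 (4.05-fold with PMA, 17.7-fold with DMSO). PROSER2 (3.71-fold with PMA, 16.4-fold with DMSO), UBE2G2 (4.97 and 18.5) and the NAD(P)HX epimerase gene NAXE (6.49 and 22.9) were among the other losses named by rule.

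Promoters with a region in 1 list alone have no rank ratio and were counted apart, 1751 with PMA alone (8.77% of all protein-coding promoters) and 1669 with DMSO alone (8.36%). The strongest with PMA alone were SLC7A2 (22-fold), a cationic amino acid transporter, CSRNP1 (19.9-fold), an immediate early nuclear protein, ELK3 (18.6-fold), an ETS factor that partners with SRF, and PARD6B (17.5-fold), a polarity protein. MET, the receptor of hepatocyte growth factor, had 16.5-fold with PMA alone, SLC39A14 16.6-fold, FMNL1 15.6-fold and ZSWIM4 15.5-fold. With DMSO alone the strongest were DKC1 (16-fold) and FBL (13.5-fold), which encode dyskerin and fibrillarin, the enzymes of box H/ACA and box C/D small nucleolar ribonucleoproteins. FARSB, AP2B1, ZBTB24, GYPB, FZD8 and CLIC1 followed at 11.5- to 9.50-fold. An absent region says only that none passed the caller's threshold.

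**Figure D2:**
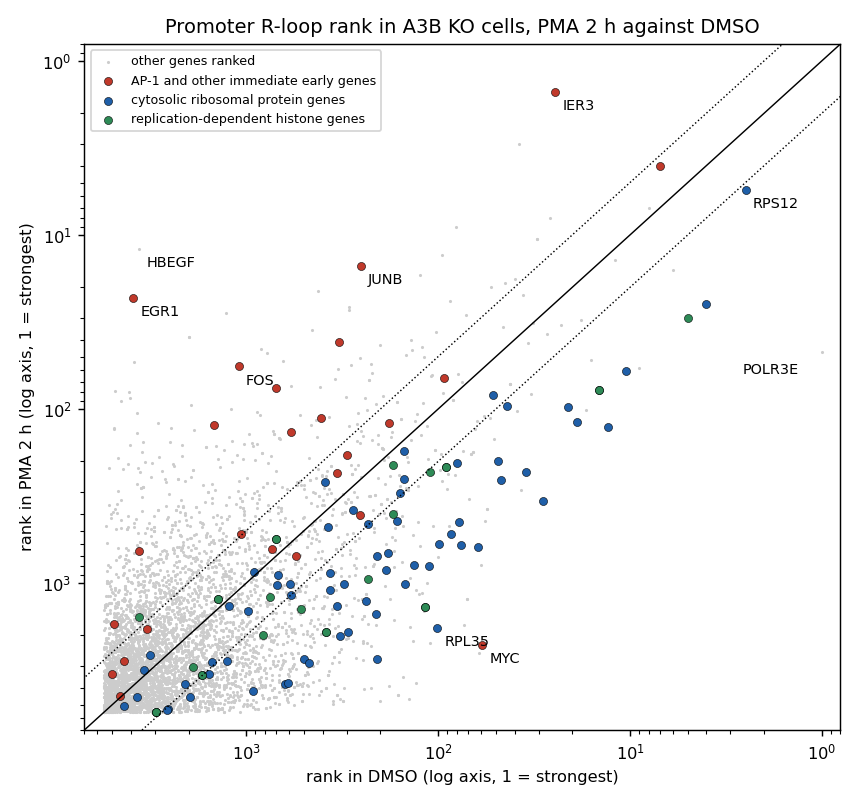
Rank of each of the 5526 promoters with a region in both lists, PMA 2 h (vertical) against DMSO (horizontal), on log axes with rank 1 strongest. The solid line marks equal rank and the dotted lines a 2-fold difference; AP-1 and other immediate early genes (red) lie mostly above the diagonal, with MYC far below it, while cytosolic ribosomal protein (blue) and histone genes (green) lie mostly below it.

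The AP-1 factors, dimers of FOS and JUN family proteins that bind phorbol ester response elements, were led by FOS, JUNB and FOSL1. Of 7 ranked members of this list 4 rose and 0 fell, with a median of 2.48 against 0.00 over all ranked promoters. JUNB had 59.8-fold with PMA and 14.6-fold with DMSO (log2 rank ratio 4.08), FOS 33.9-fold with PMA and 8.14-fold with DMSO (4.26), FOSL1 23.1-fold with PMA and 7.18-fold with DMSO (3.56), and MAFF 10.6-fold with PMA and 4.56-fold with DMSO (2.48). JUN itself did not reach a call, with 13.1-fold with PMA and 14.6-fold with DMSO, nor did JUND (10.4 and 10.7) and FOSL2 (10.8 and 9.48). FOSB, MAFG and MAFK had a region with PMA alone and 0 members with DMSO alone.

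Of 18 ranked promoters of other immediate early genes 8 rose and 1 fell (median 0.82), and 4 more had a region with PMA alone and 3 with DMSO alone. IER3, an inhibitor of apoptosis, held the highest promoter value of the PMA list at 129-fold, against 49.3-fold with DMSO (4.03), at a summit shared with the neighbouring FLOT1. ZFP36, which destabilises cytokine mRNAs, had 29.7-fold with PMA and 9.68-fold with DMSO (3.20), and the antiproliferative BTG1 had 41.0-fold with PMA and 13.2-fold with DMSO (3.0). The nuclear receptor NR4A2 rose less (22.1-fold with PMA, 10.4-fold with DMSO, 2.12). MCL1, a BCL2 family survival factor, was strong in both, at 103-fold with PMA and 64.6-fold with DMSO, and was not called (0.81). The 1 that fell was MYC.

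Feedback inhibitors of MAP kinase signalling were divided, with 6 of 9 ranked promoters higher and 3 lower, and 4 more with a region with PMA alone and 1 with DMSO alone. The ERK phosphatase genes DUSP6 (75.3-fold with PMA, 25.8-fold with DMSO, 3.17) and DUSP5 (22.3 and 6.47, 3.82) rose, as did DUSP1 (77.2 and 48.3, 1.70), SPRY4 (10.8 and 4.10, 2.68), ERRFI1 (16.8 and 9.65, 1.63) and SPRED3 (7.24 and 3.98, 1.28). SPRY2 (4.75-fold with PMA, 9.0-fold with DMSO, -2.12), DUSP4 (8.93 and 13, -1.56) and DUSP7 (8.16 and 10.3, -1.13) fell. Summits lay apart at SPRY4 (958 bp from the start with PMA, 223 bp with DMSO), SPRED3 (-607 and -1284), SPRY2 (1649 and 1003) and DUSP4 (1284 and 648). The value of DUSP7 turned to 0.26 with summits within 1 kb of the start.

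All 4 ranked genes of the EGF receptor list rose: HBEGF, TGFA (16.8-fold with PMA, 5.42-fold with DMSO, 3.59) and AREG (22.9 and 13.7, 1.22), which encode ligands shed from the cell surface, and EGFR (13.8 and 9.34, 1.12), their receptor. ADAM17, the sheddase of these ligands, had 13.9-fold with PMA alone, and the receptor ERBB2 5.87-fold with DMSO alone. The bodies of this list were divided, with 2 of 9 ranked higher and 3 lower, among them HBEGF at 3.59, EGFR at -1.45 and AREG at -2.38. Of 6 ranked genes for NF-κB subunits and their feedback inhibitors 5 rose and 0 fell (median 1.56), and a further 7 of the 18 genes on that list had a region with PMA alone and 0 with DMSO alone. BIRC3 stood at 14.5-fold with PMA and 5.67-fold with DMSO (3.02), NFKB1 at 10.5 and 5.83 (1.83), NFKBIA, which encodes IκBα, at 39.3 and 20.3 (1.57), REL at 8.87 and 5.07 (1.55) and RELA at 7.06 and 3.69 (1.31). The compared summits of RELA lay at 1885 bp from the start with PMA and 1910 bp with DMSO. They lay apart at BIRC3 (198 and 1332), NFKB1 (755 and -413), NFKBIA (740 and 1286) and REL (368 and -324), negative values being upstream. NFKB2 (9.63-fold), TNFAIP3 (8.08-fold), TRAF3 (6.55-fold), RELB (4.55-fold), NFKBIE, CYLD and TNIP1 were found with PMA alone. Among the ranked NF-κB genes, REL, RELA and BCL3 stood at DMSO ranks of 3061.5 to 5455, too low to be called lower.

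Secreted proteins and their regulators gave a mixed picture. Of 11 ranked cytokine and chemokine promoters 5 rose and 1 fell, and 2 had a region with PMA alone and 1 with DMSO alone. VEGFA had 15.8-fold with PMA and 6.18-fold with DMSO (2.99), LIF 10.4 and 4.02 (2.62), CSF3, the granulocyte growth factor, 37.1 and 14.6 (2.32), CCL20 7.42 and 3.90 (1.40) and CXCL1 46.6 and 27.4 (1.31). The CCL20 summits lay apart, at 613 bp from the start with PMA and -1304 bp (upstream) with DMSO. CXCL2, a neighbour and close relative of CXCL1, was the 1 that fell, with 6.48-fold with PMA and 15-fold with DMSO (-3.24). In the urokinase, serpin and metalloprotease list, SERPINB1 (25.3-fold with PMA, 7.76-fold with DMSO, 3.59), SERPINB8 (13.3 and 4.68, 3.18) and MMP14 (15.9 and 8.14, 2.08) rose among 5 ranked, and PLAU, PLAUR, PLAT, TIMP1 and TIMP2 had a promoter region with PMA alone, and TIMP3 one with DMSO alone (4.43-fold). The value of MMP14 turned to -0.27 with summits within 1 kb of the start.

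Cell junction genes rose in 5 of 7 ranked promoters and fell in 0 (median 1.49), and 5 more had a region with PMA alone. Besides OCLN (5.26), these were NECTIN1 (13-fold with PMA, 4.09-fold with DMSO, 3.32), JUP, which encodes plakoglobin (8.87 and 3.06, 2.30), the desmosomal DSP (7.95 and 4.22, 1.49) and the p120 catenin gene CTNND1 (6.91 and 2.99, 1.42). The junction count was 3 with regions of −log10 q of at least 5 and 2 with summits within 1 kb. OCLN, CLDN7, CTNND1, NECTIN1, JUP and DSP stood at DMSO ranks of 4005.5 to 5471, too low to be called lower. That 0 junction promoters fell was therefore mostly fixed beforehand. CDH1, which encodes E-cadherin, had 8.86-fold with PMA alone. The basal list was divided, with 3 of 9 higher and 4 lower. LAMB3, a chain of the laminin that hemidesmosomes anchor to, had 48.3-fold with PMA and 13.7-fold with DMSO (3.43), and the integrins ITGA3 (26.7 and 15.9, 1.17) and ITGA6 (7.29 and 4.29, 1.18) rose. The keratins KRT5 (4.41-fold with PMA, 14.8-fold with DMSO, -4.05), KRT6A (12.4 and 21.3, -1.80) and KRT14 (8.14 and 11.2, -1.41) fell, as did ITGB4 (10.0 and 18.3, -2.29).

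**Figure D3:**
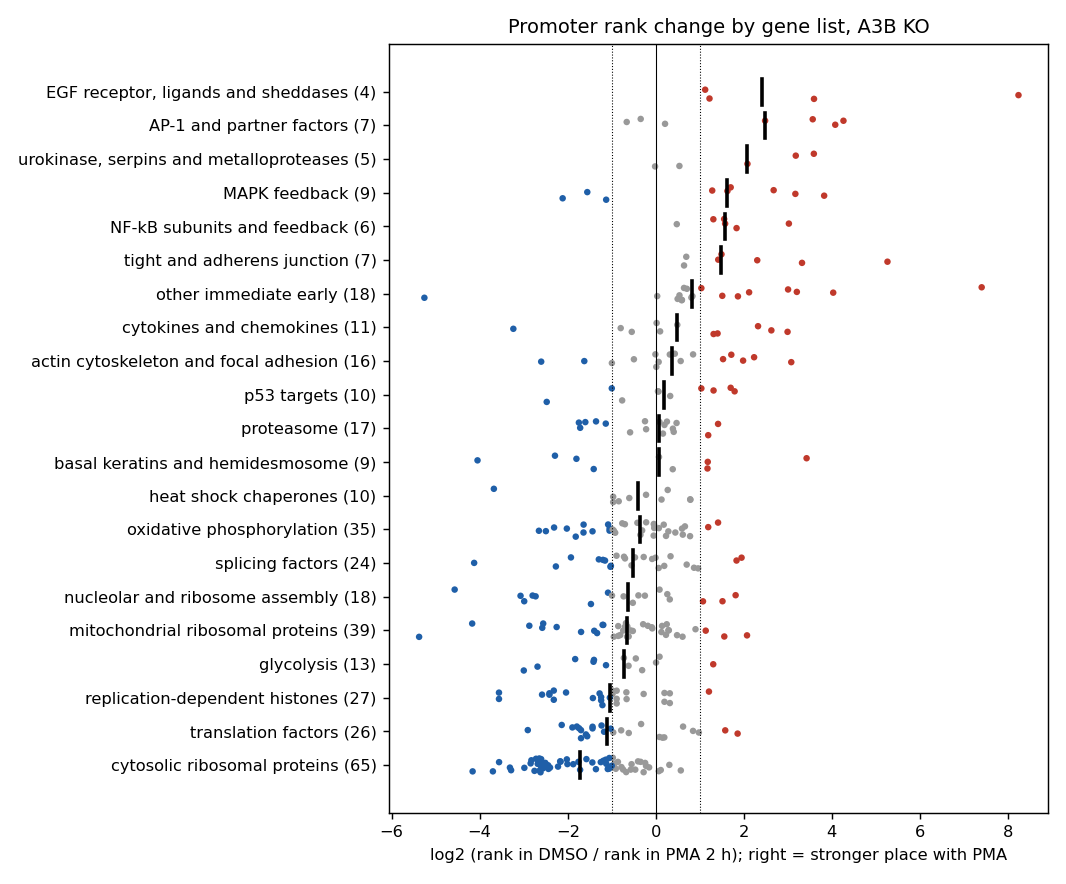
Log2 of the rank with DMSO over the rank with PMA 2 h for each ranked promoter in 21 gene lists (number of ranked genes in parentheses); black bars are list medians, dotted lines mark a 2-fold rank difference, red points rose and blue points fell. The EGF receptor and AP-1 lists have medians of 2.41 and 2.48. The cytosolic ribosomal protein list has -1.72, with 0 of 65 genes called higher.

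The genes that build the translation machinery lost rank. Among 65 ranked promoters of cytosolic ribosomal protein genes 45 fell and 0 rose, with a median of -1.72, and 0 further promoters had a region with PMA alone against 4 with DMSO alone. These genes encode the structural proteins of the small and large ribosomal subunits. RPL35 had 7.14-fold with PMA and 23.7-fold with DMSO (-4.16, summit shared with ARPC5L), RPL13 5.79 and 16.1 (-3.70), RPS16 14 and 38.2 (-3.56, shared with SUPT5H), and RPL19 22.5 and 55.2 (-3.29). RPS12 fell by rank only: its enrichment was 102-fold with PMA and 88.7-fold with DMSO, at ranks 5.5 and 2.5 (-1.14). RPL24 was the highest of the list at 0.57, without a call.

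Translation factors fell in 14 of 26 ranked promoters and rose in 2 (median -1.10), and the count of lower ones was 9 both with ranking by pileup and with summits within 1 kb. EIF3H (6.08-fold with PMA, 13.2-fold with DMSO, -2.91) and EIF3J (7.28 and 12.3, -2.14) are subunits of the initiation factor that recruits the 40S subunit, EEF1G (5.91 and 9.63, -1.90) belongs to elongation factor 1, and EIF4E (3.29 and 7.10, -1.74) encodes the cap-binding protein. TPT1 (49.2-fold with PMA, 25.2-fold with DMSO, 1.86) and EIF4G2 (14.9 and 8.89, 1.58) were the 2 that rose. Nucleolar and ribosome assembly genes fell in 7 of 18 and rose in 3 (median -0.63), and a further 0 of the 30 listed genes had a region with PMA alone and 8 with DMSO alone. NOP58 (15.1-fold with PMA, 35.2-fold with DMSO, -2.99), NOP56 (3.49 and 9.64, -2.80) and NOLC1 (5.44 and 11.6, -2.73) joined DDX21 and FBL on the lower side. Nucleophosmin, NPM1, had 8.73-fold with PMA and 21-fold with DMSO (-3.07), at a summit just over 1 kb from the start, and 0.79 with summits within 1 kb. POLR1C, shared by RNA polymerases I and III, rose (9.06 and 4.74, 1.81), as did WDR12 and UTP14A.

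Replication-dependent histone genes fell in 14 of 27 ranked promoters and rose in 1 (median -1.04). The linker histone genes H1-2 (45.3-fold with PMA, 69.8-fold with DMSO, -2.58) and H1-4 (29.5 and 54.2, -2.42) stayed among the strong promoters, and the divergent pair H2AC15 and H2BC15 shares 1 summit (8.04 and 22.3, -3.56). Since such pairs are counted as 2 genes, the number of independent regions in this list is smaller than 27. Mitochondrial ribosomal protein genes fell in 11 of 39 and rose in 3 (median -0.65), with MRPL17 and MRPL3 (4.44-fold with PMA, 15.5-fold with DMSO, -4.17) lowest, and 6 had a region with PMA alone against 15 with DMSO alone. Subunits of oxidative phosphorylation fell in 11 of 35 and rose in 2 (median -0.35). Splicing factors fell in 8 of 24 and rose in 2 (median -0.51), led by SRSF7 (8.33-fold with PMA, 27.5-fold with DMSO, -4.13), whose summit is shared with GEMIN6. Glycolysis genes fell in 6 of 13 and rose in 1: GAPDH had 33.8-fold with PMA and 63.3-fold with DMSO (-2.69), and the phosphofructokinase gene PFKP 3.57 and 10.3 (-3.0). The paper, however, classes GAPDH as PMA nonresponsive. The chaperone HSPA5 of the endoplasmic reticulum (7.17 and 20.0, -3.68) was the only 1 of 10 ranked heat shock genes that was called.

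Genes whose products act on R-loops had no common direction. Of 14 ranked promoters 3 rose, BRCA1 (9.69-fold with PMA, 3.87-fold with DMSO, 2.44), HNRNPUL1 (10.9 and 5.19, 2.285) and RNASEH2C (12.8 and 7.42, 1.70), and 2 fell, DDX21 and RNASEH2B (4.60 and 7.55, -1.56). RNASEH2C and RNASEH2B encode subunits of the same enzyme. RNASEH1, which degrades the RNA of R-loops, stood at 5.66-fold with PMA and 4.69-fold with DMSO (0.31), and none of the 3 ranked APOBEC3 genes, APOBEC3C, APOBEC3D and APOBEC3F, was called (0.06 to 0.46).

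The upstream DNA of 3 promoters is printed to show where motif matches lie in genes named here, 2 that rose and 1 that fell, and they were picked because they hold a match. These are the 250 bases before the RefSeq transcription start (GRCh38), 5′ to 3′ on the coding strand, with motif matches on either strand in capitals: CArG boxes bound by SRF at EGR1, NF-κB sites at LAMB3, and CCAAT and TATAAA elements at H1-4.
EGR1, chr5:138465229-138465478, plus strand: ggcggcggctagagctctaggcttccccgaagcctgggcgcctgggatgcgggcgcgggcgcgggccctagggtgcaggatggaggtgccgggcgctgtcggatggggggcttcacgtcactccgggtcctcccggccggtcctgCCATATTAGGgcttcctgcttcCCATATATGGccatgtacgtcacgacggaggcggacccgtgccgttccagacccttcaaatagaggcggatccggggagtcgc
LAMB3, chr1:209652426-209652675, minus strand: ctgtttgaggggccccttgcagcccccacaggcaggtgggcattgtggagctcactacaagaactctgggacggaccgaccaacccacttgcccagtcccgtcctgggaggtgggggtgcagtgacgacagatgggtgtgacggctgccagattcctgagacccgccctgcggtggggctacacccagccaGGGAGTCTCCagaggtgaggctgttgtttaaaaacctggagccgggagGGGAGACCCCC
H1-4, chr6:26156079-26156328, plus strand: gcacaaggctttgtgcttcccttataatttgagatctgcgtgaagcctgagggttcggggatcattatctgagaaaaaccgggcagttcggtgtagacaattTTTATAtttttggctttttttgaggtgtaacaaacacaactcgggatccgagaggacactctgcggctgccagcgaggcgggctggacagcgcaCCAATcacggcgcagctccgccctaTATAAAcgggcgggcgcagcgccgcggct

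Motifs were counted in 300 bases of RefSeq promoter sequence, which matched 15316 protein-coding genes, 704 of them called higher and 741 called lower. An NF-κB site was found in 15.6% of promoters that rose, 14.04% of those that fell and 12.3% of all. The AP-1 element TGANTCA was found in 4.40% of promoters that rose, 4.05% of those that fell and 5.75% of all, and the CRE TGACGTCA in 4.26%, 3.64% and 2.64%. A CArG box was found in 1.42% of promoters that rose, 1.62% of those that fell and 1.22% of all. CCAAT stood in 33.1% of rising, 38.2% of falling and 36.6% of all promoters, and TATAAA in 5.82%, 5.67% and 9.64%. By list, 8 of 16 promoters of the NF-κB list held an NF-κB site, and 55 of 65 histone promoters held CCAAT and 43 of 65 TATAAA. Of 35 AP-1 and other immediate early promoters, 2 held a CArG box, 1 the AP-1 element, 2 the CRE and 3 an NF-κB site. These letters are matches, not measured binding.

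Regions inside genes, more than 2 kb from every start, ranked 10847 gene bodies, of which 1884 rose (17.4%) and 1759 fell (16.2%). SOD2, the mitochondrial superoxide dismutase gene known as an NF-κB target, had 46.2-fold and rank 8 with PMA, against 8.33-fold and rank 1207 with DMSO (7.24). PLAU, which encodes urokinase, had 44.3-fold with PMA and 8.77-fold with DMSO (6.51), and SERPINB1 25.1 and 6.29 (6.78). At these 3 genes the PMA and DMSO summits lay within 30 bp of each other. NFKBIZ (17.7-fold with PMA, 4.78-fold with DMSO, 6.65), an atypical IκB protein, PRDM1 (18.5 and 5.32, 6.52), which encodes the repressor BLIMP1, TNFRSF1B (16.4 and 5.00, 6.22), BRME1 (15 and 3.37, 6.30) and IL1RAPL2 (26 and 7.10, 6.31) also rose, but there the strongest summits of the lists were at different places in the gene. The body of FOS followed its promoter, with 19.1-fold with PMA and 6.07-fold with DMSO (6.19).

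MYC showed the largest loss in a gene body, with 6.61-fold and rank 6504 with PMA, against 49.3-fold and rank 10 with DMSO (-9.35), at summits 6295 and 6301 bp from the annotated start. NCL, the gene of the nucleolar protein nucleolin, had 6.67-fold with PMA and 22.3-fold with DMSO (-7.20). NKD1, an inhibitor of Wnt signalling, had 8.04 and 41.1 (-7.93) at summits about 31 kb apart. The pairs TMEM140 and CYREN (16.6-fold with DMSO in each) and FNDC8 and NLE1 (16.5-fold) overlap and share their DMSO summits, and THAP7 had 4.8 and 15.2 (-6.58). Bodies of cytosolic ribosomal protein genes fell in 30 of 42 and rose in 1 (median -2.23), with RPS25 (-5.90), RPL35 (-5.75) and RPL26 (-5.72) lowest.

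The body and the promoter of a gene tended to move the same way, but not at every gene. CCND3 stood at 5.65 at its promoter and -4.58 in its body, and JUP at 2.30 and -1.21. Among genes whose promoter rose, 648 had a ranked body, of which 22.1% rose and 14.5% fell. Among genes whose promoter fell, 587 had a ranked body, of which 13.97% rose and 26.9% fell. Over all 3686 genes ranked at both places the shares were 16.03% and 19.1%. These are counts within the same pair of libraries and carry no test.

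The same held for the number of regions by distance from the start in genes of at least 20 kb. In 547 genes with a rising promoter, the stretch from 2 to 5 kb held 0.567 regions per gene with PMA and 0.380 with DMSO, a ratio of 1.49, and the ratio was 1.47 from 5 to 10 kb and 1.41 from 10 to 20 kb. In 472 genes with a falling promoter, 2 to 5 kb held 0.379 regions per gene with PMA and 0.466 with DMSO, a ratio of 0.814, and the ratio was 0.940 and 0.987 further in. In 2086 genes with neither call the ratios were 1.03, 1.10 and 1.16. The whole PMA list is 1.22 times as long as the DMSO list.

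**Figure D4:**
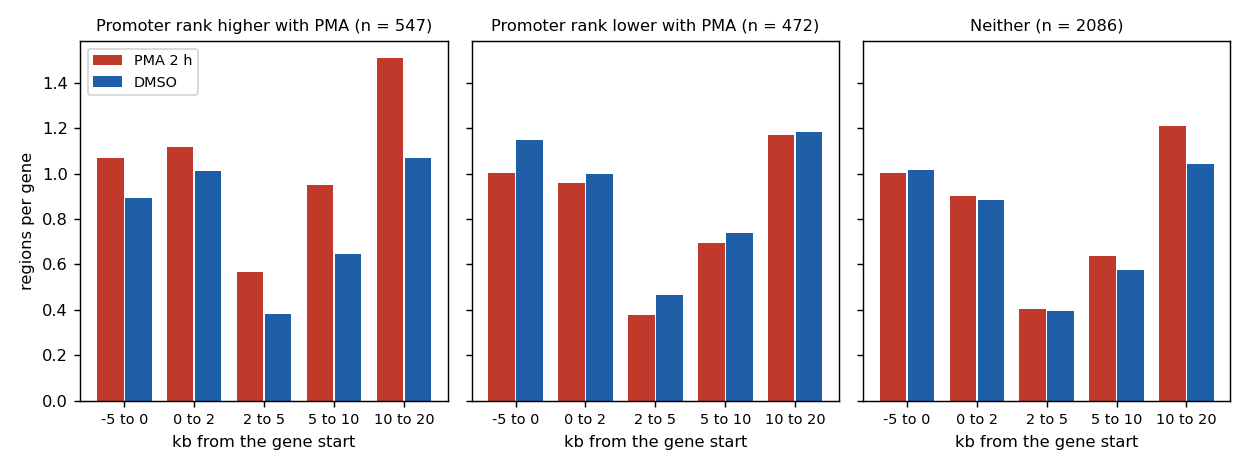
R-loop regions per gene with PMA 2 h (red) and DMSO (blue), by distance from the gene start in kb (negative values are upstream), for genes of at least 20 kb whose promoter rank rose (left), fell (middle) or was called neither way (right). Red bars stand above blue ones from 2 to 20 kb on the left, with 0.567 against 0.380 regions per gene at 2 to 5 kb, and below them in the middle panel.

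Counted as regions per gene, 15161 genes had at least 1 region, 1302 had at least 5 more with PMA (8.59%) and 301 at least 5 fewer (1.99%). With the PMA list shortened to the length of the DMSO list these counts were 583 and 643, so the excess of gains went with list length, and the PMA count at equal length follows each PMA count in parentheses. NDRG1, a stress-responsive gene of epithelial differentiation, had 31 regions with PMA (26 at equal length) and 1 with DMSO. TNIP1, a partner of TNFAIP3 in limiting NF-κB, had 32 with PMA (32 at equal length) and 4 with DMSO. CTNNA1, which encodes α-catenin, had 76 (62) and 44, CROCC 53 (36) and 21, KLC1 53 (41) and 24, and the long neuronal genes RBFOX1 98 (81) and 66 and CACNA1A 66 (54) and 39. ENSG00000256500, with 38 (29) and 12, lies within KLC1 on the same strand.

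Fewer regions were counted at SLC7A5, the large neutral amino acid transporter, with 2 (2) with PMA and 22 with DMSO, and at ITGB4, the β4 integrin of hemidesmosomes, with 9 (7) and 25. DHRS4L2 had 4 (4) and 17, and CNBD1 8 (4) and 30. PRH1, TAS2R14 and ENSG00000275778 overlap and had 3 (2) with PMA each and 23, 22 and 23 with DMSO. At SLC7A5 the promoter also fell (6.57-fold with PMA, 14-fold with DMSO, -2.96).

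By list, more regions were counted at protein kinase C and D, junction and NF-κB genes, but not at every signalling list. AP-1 genes had more in 5 of 12 and fewer in 3 (4 and 4 at equal length). Cytokine and chemokine genes had more in 6 of 14 and fewer in 1 (5 and 3). Genes with at least 5 more regions had a median length of 115 kb, against 39.7 kb over all genes with a region. The part that gene length plays in these lists was not tested. Of 12 genes of protein kinase C and D, the kinase families that hold the main phorbol ester receptors, 11 had more regions with PMA and 0 fewer, 139 regions in all with PMA and 80 with DMSO, and at equal list length 9 had more and 0 fewer. PRKCE had 16 (14) with PMA and 4 with DMSO, PRKCH 15 (14) and 5, and PRKCB 20 (16) and 9. Junction genes had 282 regions with PMA and 134 with DMSO, more in 16 of 18 genes and fewer in 1 (14 and 3 at equal length), among them JUP with 28 (22) with PMA and 5 with DMSO and CDH1 with 25 (19) and 13. NF-κB genes had 120 with PMA and 42 with DMSO, more in 14 of 17 and fewer in 2 (14 and 3 at equal length). Nucleolar genes had 120 with PMA and 176 with DMSO, more in 3 of 30 and fewer in 24 (3 and 26), and heat shock chaperones had more in 1 of 15 and fewer in 9 (0 and 10). The corresponding share over all 15161 genes was 48.6% with more and 31.4% with fewer, and at equal length 5344 of them had more and 6524 fewer.

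**Figure D5:**
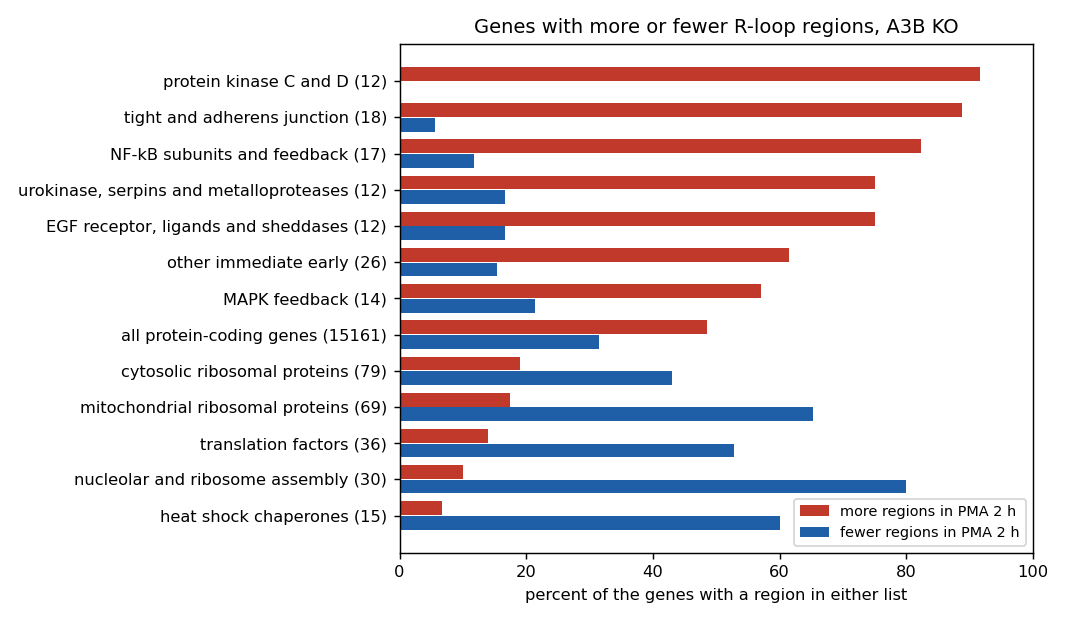
Percent of genes with more regions (red) or fewer regions (blue) with PMA 2 h than with DMSO, by gene list (number of genes with a region in either list in parentheses), with the DMSO and PMA lists as deposited. The all-gene bars stand at 48.6% and 31.4%. Protein kinase C and D genes stand at 91.7% and 0%, nucleolar genes at 10.0% and 80.0%. Other lists are not shown, among them AP-1 and cytokine genes.

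Between genes, 39939 intergenic loci held a region in either list, 30627 with PMA and 23986 with DMSO. Of the 14674 found in both, 2415 rose (16.5%) and 2446 fell (16.7%). The 2 largest gains lay 1762 and 140 bp past the end of SDC4, which encodes the heparan sulphate proteoglycan syndecan-4: 14-fold with PMA against 3.69-fold with DMSO (6.62), and 19.5-fold against 5.75-fold (6.36). A locus 1155 bp past the end of EGR1 had 12.7-fold with PMA and 2.95-fold with DMSO (6.26). Loci past SPINT1 (14.8 and 4.87, 6.21) and PPA1 (12.5 and 3.25, 5.98) and a locus far from any gene, with FOXD4L5 the nearest (14.8 and 4.77, 6.35), made up the rest named by rule.

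The largest loss was at a locus 623 bp past the end of SRM, which encodes spermidine synthase, with 3.84-fold with PMA and 18.2-fold with DMSO (-7.75). Loci nearest ANAPC4 (3.82 and 11, -6.45), RPL6 (5.59 and 13, -6.33), HSPD1 (2.84 and 10.5, -6.32), FAM72C (6.08 and 14.4, -6.27) and PLPP7 (5.45 and 12.2, -6.24) followed. Of the 40 largest losses 32 lay within 5 kb past a gene end, against 13 of the 40 largest gains, a count chosen after the values were seen. Over all 2300 loci within 5 kb past a gene end, 15.04% rose and 22.1% fell, against 16.8% and 15.6% of 11361 loci more than 5 kb from every gene. Where the gene's promoter rose, 24.6% of 211 such loci rose and 18.96% fell. Where it fell, 8.11% of 185 rose and 36.2% fell. Loci within 5 kb before a start differed: where the promoter rose, 11.6% of 69 rose and 26.1% fell, and where it fell, 16.7% of 48 rose and 22.9% fell, against 15.9% and 16.2% of all 1013. The strongest intergenic locus was the same in both lists, on chromosome 4 with CWH43 the nearest gene, with 86.2-fold with PMA and 82.4-fold with DMSO.

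The primer sites that the study used for DRIP–qPCR were located in hg38 and read from the same lists. The FOS amplicon (chr14:75280076-75280162) lay in a region of 24.5-fold with PMA and 4.30-fold with DMSO, the DUSP1 amplicon in regions of 44.3 and 7.65, and PIM3 in 12.9 and 5.63. The GAPDH amplicon lay in a region of 33.8-fold with PMA and 63.3-fold with DMSO, and the amplicon of H1-4 in 29.5 and 54.2. GADD45A (31.7 and 26.9), PHLDA1 (30.7 and 24.8) and HSPA8 (61.5 and 56.3) were close in both. The JUNB amplicon fell outside every region, 519 bp from the nearest PMA summit and 472 bp from the nearest DMSO summit. At DUSP1 the amplicon values differed more between conditions than the strongest promoter region did.

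After 6 h of PMA the same KO cells gave another list, which shares its DMSO control with the 2 h comparison, so the values are only set side by side, in the order DMSO, 2 h, 6 h. HBEGF was at 4.57-, 62.5- and 6.51-fold and EGR1 at 4.32-, 49.4- and 8.57-fold. CCND3 was at 3.78-, 26.8- and 5.07-fold. At these genes the high value was at 2 h alone. PPP1R15A was at 4.37-, 34.8- and 16.3-fold, FOS at 8.14-, 33.9- and 12.8-fold, and LAMB3 at 13.7-, 48.3- and 38.8-fold. TGFA and BIRC3 were as high at 6 h as at 2 h, with 5.42-, 16.8- and 18.2-fold and with 5.67-, 14.5- and 15.2-fold. On the falling side MYC was at 29.7-, 6.43- and 23.6-fold, POLR3E at 94.7-, 39.2- and 53-fold, and CXCL2 at 15-, 6.48- and 14.1-fold. KRT5 stayed low, at 14.8-, 4.41- and 4.08-fold.

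WT cells with the same treatments share no library with the KO pair, and 4063 promoters were ranked in both comparisons. Of 753 that rose in KO cells, 43.2% also rose in WT cells and 7.57% fell. Of 785 that fell in KO cells, 49.4% also fell in WT cells and 4.84% rose. The background of the WT comparison over the same 4063 promoters was 17.7% higher and 19.9% lower. The change at HBEGF was 8.24 in KO cells and 8.08 in WT cells, at OCLN 5.26 and 5.52, at CCND3 5.65 and 6.22, at DDX21 -4.57 and -4.80 and at MYC -5.26 and -5.95. The change was 7.40 in KO cells and 5.00 in WT cells at EGR1, and 6.15 and 4.08 at PPP1R15A. It was called in KO cells and not in WT cells at TGFA (3.59 and -0.24), PIM3 (2.62 and -0.41), VIM (4.07 and -0.26), GAPDH (-2.69 and 0.79) and HSPA5 (-3.68 and -0.40). With 1 library per condition the difference between KO and WT changes was not tested. Cytosolic ribosomal protein promoters fell in 38 of 63 in WT cells (median -1.22), against 45 of 65 in KO cells (median -1.72), and the EGF receptor list had 1 of 5 higher in WT cells (median 0.30), against 4 of 4 in KO cells (median 2.41).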

How the data were processed

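DRIP–seq peak lists of A3B KO MCF10A cells were compared, PMA 2 h with DMSO, 1 library each. Per the labels and methods, the authors trimmed reads with cutadapt 1.13, aligned them to hg38 with STAR 2.6.1d, filtered with SAMtools 1.3.1, Picard and bedtools 2.29.2, made coverage with deepTools 2.5.0.1 and called peaks against input with MACS2 (2.2.6 in the labels, another version in the methods) at a q of 0.01. The deposited pileup is the authors' signal at the summit. The deposited −log10 q is the authors' value against input. Regions were ranked here by the deposited fold enrichment, a ratio of the summit to its local background. Depth per sample is unknown from these lists, and the authors' scaling between libraries was not applied here. Every region is 500 bp. Mitochondrial regions (6 with PMA, 9 with DMSO) were left out.

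Regions were annotated with GENCODE 44 in Python 3.11.15 (pandas 2.3.3, scipy 1.17.1). A promoter region has its summit within 2 kb of the start of a protein-coding gene, a body region lies in a gene more than 2 kb from every start, and the rest are intergenic. Overlap was at least 1 bp. The ranking code was checked on simulated data, with changes planted in the DMSO list and little added noise. That check does not show how reliable calls between single libraries are. The promoter ranks with PMA and with DMSO had a Spearman correlation of 0.497. No group has replicates, so no test was run. Named genes were the 12 promoters, 8 bodies, 6 loci and 8 region counts with the largest change each way within rank 1000, the 8 strongest promoters in 1 list alone, up to 6 members of each gene list and the genes that the study names beside DRIP. The members and lists were chosen with earlier results of these data known. Alternatives were ranking by pileup or −log10 q, a −log10 q of at least 5, equal list lengths, summits within 1 kb, genes in either list, bodies over 5 kb from a start and a 250 bp overlap. Some genes that the rule names are not reported here.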

Additional observations from a re-analysis of the deposited data

Results flagged for a closer look

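At 5 promoters of the gene lists the change with PMA was called in opposite directions in KO and in WT cells. TNFRSF10B, which encodes a TRAIL receptor, had a log2 rank ratio of 1.79 in KO cells and -2.41 in WT cells. EIF4G2 had 1.58 in KO cells and -1.95 in WT cells, and RNASEH2C, a subunit of RNase H2, had 1.70 and -1.19. The proteasome gene PSMC1 had -1.14 in KO cells and 1.18 in WT cells, and RPL23A had -1.25 and 1.02. With 1 library per condition these differences were not tested.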

How the results depend on the processing

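Of 245 called gene values recomputed under the alternatives, 1282 of 1386 values kept their direction and their call. A further 94 lost the call without reversing, and 10 reversed. The size of the shift in values that kept their call was not measured. Ranking by pileup turned TP53I3 to 0.23, EIF3A to 0.30 and NDUFA10 to 0.065. Summits within 1 kb of the start turned DUSP7 to 0.26, MMP14 to -0.27, DDIT4 to 0.63, EIF3L to 0.47, PSMB6 to 0.11, NPM1 to 0.79 and RPL12 to 0.10, where the summits past 1 kb are no longer counted. A list median could count as reversed only if its size was at least 1, and no such median changed sign. Of 169 recomputed values of the 29 list medians, 145 were the same and 24 moved. A move is a gained or lost 2-fold size or, for smaller medians, a change of sign. Ranking by pileup moved 9 of 29. Translation factors called lower numbered 9 by pileup and 9 within 1 kb, and junction genes called higher 3 at a −log10 q of at least 5, 2 within 1 kb and 9 with genes in either list. With genes in either list 1640 promoters were higher and 1634 lower, and 8 NF-κB genes were higher. The promoter share, PMA minus DMSO, was -2.45 percentage points at the stricter q and -1.13 within 1 kb. The gene body share difference was 0.90 at the stricter q, -0.13 at equal list lengths and -0.22 within 1 kb, against 0.31 as reported. The shared part was 45.0% of the PMA list and 54.9% of the DMSO list at 250 bp overlap, 45.5% of the PMA list at the stricter q, and 54.9% of each list at equal lengths. Genes with at least 5 fewer regions numbered 110 at the stricter q; at equal lengths 583 genes had at least 5 more and 643 at least 5 fewer. No paired analysis was possible because each condition has 1 library. Peak lists give no read depth, so values near the caller's threshold are the least certain.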

Other observations

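Other lists had no common direction at ranked promoters. Of 16 actin cytoskeleton and focal adhesion genes 5 rose and 2 fell (median 0.37), with the myosin light chain gene MYL12B at 24.6-fold with PMA and 8.91-fold with DMSO (3.08) and the caveolin gene CAV1 at 4.56 and 9.99 (-2.60). Of 10 p53 target genes 4 rose and 2 fell, and of 17 proteasome genes 2 rose and 5 fell. Over all ranked promoters 16.6% rose and 17% fell. Of 6 G1 cyclin and inhibitor genes 1 rose, CCND3, and 2 fell, CCND1 (4.10-fold with PMA, 10.1-fold with DMSO, -2.79) and CDK6 (-2.16). Of 10 amino acid transport and stress response genes 1 rose and 3 fell, and 0 more had a region with PMA alone against 4 with DMSO alone.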
